A study of Homo sapiens with 18 samples.

Results

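GRα cells treated with dexamethasone were compared with empty-vector control cells given the same treatment, so that both lines were measured with agonist present. The 6 arrays were found from the sample titles, 3 of GRα cells and 3 of control cells, out of 17 arrays with values in the series. H295R is an established human adrenocortical carcinoma line that makes steroid hormones. Both lines carry a stable, non-inducible pcDNA4 vector, which encodes GRα in the GRα line and is empty in the control line, and whether a line is 1 clone or a pool is not given in the sources used here. All cells were grown with zeocin, kept without serum for 24 h at 70% confluence and then given dexamethasone at 100 nM for 6 h. For comparison, GRα vehicle and control vehicle cells (3 arrays each) received ethanol for 6 h, and GRα RU486 (2 arrays) and control RU486 cells (3 arrays) received RU486, a receptor antagonist with partial agonist activity, at 100 nM for 6 h.

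GRα, encoded by NR3C1, is the glucocorticoid receptor isoform that binds hormone, and belongs to the nuclear receptors. Without ligand it is held in the cytoplasm by heat shock protein chaperones. With an agonist such as dexamethasone it enters the nucleus, where it binds DNA at palindromic glucocorticoid response elements and raises or lowers transcription with coregulator proteins. In the adrenal cortex, glucocorticoids are the main product of the cells and also act back on them.

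NR3C1 was the check of the labels. Its log2 values were 8.0, 8.04 and 8.11 in GRα dexamethasone cells, against 7.40, 7.38 and 7.23 in control dexamethasone cells. The groups did not overlap, and the difference was 1.64-fold (log2 0.71 ± 0.07 SE, limma adjusted p = 1.18e-07). The probe set does not tell RNA from the vector and the cell's own NR3C1 RNA apart here. NR3C2, the mineralocorticoid receptor gene, which encodes the other receptor that binds glucocorticoids, was 1.58-fold lower in GRα dexamethasone cells (log2 −0.66 ± 0.10 SE, limma adjusted p = 5.77e-05).

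All values are log2 array signals, a fold is 2 raised to a log2 difference, and detection above background was not tested. A gene was called at a limma adjusted p under 0.05 over 18417 genes. With dexamethasone, 6132 genes (33.3%) were called between the lines, of which GRα cells were higher for 2894 (15.7%) and lower for 3238 (17.6%), and 479 (2.60%) differed by at least 1 log2. The arrays of the lines did not overlap for 8397 genes (45.6%). Among the 6 arrays, correlations over genes were 0.995 to 0.997 within a line and 0.974 to 0.976 between lines. Measured adrenocortical markers numbered 13, of which 7 lay above the median gene on all 6 arrays and 5 were lower in GRα cells (STAR, SCARB1, SULT2A1, HSD3B2 and FDX1). Their summed linear signals were 5180 to 5390 in GRα cells and 7060 to 7170 in control cells. In bulk RNA, fewer cells of a type and less RNA per cell cannot be told apart. Of the endothelial markers 8 of 12, and of the leukocyte markers 8 of 13, lay below the first quartile of genes on all 6 arrays. Replicates are called biological in the labels, with no mention of separate cultures, so the p-values reflect only how far these samples spread, and that spread may be technical.

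Promoter sequences of 4 genes are shown because they hold letters of a glucocorticoid response element. By the test given below, the line difference changed between vehicle and dexamethasone for OR7A5 and CSRNP1. For EPHA4 and TXNIP it did not pass that test. Each sequence is the 250 bases before a transcription start, 5′ to 3′ on the gene's strand, from RefSeq (GRCh38.p14). OR7A5, an olfactory receptor gene, is at chr19:14835186-14835435, minus strand. CSRNP1, which encodes a nuclear protein, is at chr3:39154642-39154891, minus strand. EPHA4, an ephrin receptor gene, is at chr2:221574203-221574452, minus strand. TXNIP, which encodes a thioredoxin-binding protein, is at chr1:145996580-145996829, minus strand. Capitals mark GNACA and TGTNC with 3 bases between them in OR7A5, EPHA4 and TXNIP and TGTTCT in CSRNP1. CSRNP1, EPHA4 and TXNIP each have a second RefSeq promoter, not shown, in which neither motif was found.
OR7A5: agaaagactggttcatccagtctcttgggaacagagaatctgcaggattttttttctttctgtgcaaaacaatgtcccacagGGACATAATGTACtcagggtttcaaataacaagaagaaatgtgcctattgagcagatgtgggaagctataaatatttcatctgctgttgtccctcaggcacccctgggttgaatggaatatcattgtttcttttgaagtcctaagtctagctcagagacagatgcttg
CSRNP1: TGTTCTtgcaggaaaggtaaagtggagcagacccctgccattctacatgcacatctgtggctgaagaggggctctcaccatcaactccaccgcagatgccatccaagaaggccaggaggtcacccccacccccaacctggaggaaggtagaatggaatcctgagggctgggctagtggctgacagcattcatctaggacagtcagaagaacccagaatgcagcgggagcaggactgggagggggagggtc
EPHA4: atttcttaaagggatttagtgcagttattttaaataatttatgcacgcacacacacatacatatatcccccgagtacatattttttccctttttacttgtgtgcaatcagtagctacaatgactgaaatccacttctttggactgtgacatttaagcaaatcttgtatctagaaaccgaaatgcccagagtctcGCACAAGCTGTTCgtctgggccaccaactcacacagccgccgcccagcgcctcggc
TXNIP: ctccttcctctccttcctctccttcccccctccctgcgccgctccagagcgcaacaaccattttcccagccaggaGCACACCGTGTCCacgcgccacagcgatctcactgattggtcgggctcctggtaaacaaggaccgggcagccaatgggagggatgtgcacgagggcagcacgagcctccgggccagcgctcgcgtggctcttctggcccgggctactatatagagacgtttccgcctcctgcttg

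The first of these, 13 letters long (GNACA, any 3 bases, TGTNC), reads the same on both strands and was present in 0.327% of 35116 RefSeq promoters of this length (115). The 6-letter motif AGAACA, or TGTTCT on the other strand, was present in 12.4%. A full response element can hold the 6-letter motif on both strands, so the searches can overlap. RefSeq promoters were matched for 7 of the 12 genes whose line difference differed between dexamethasone and vehicle. Of these 7, OR7A5 held the 13-letter motif and CSRNP1 the 6-letter motif. A gene was counted if any of its promoters matched, and JADE1 and CSRNP1 have several. The percentages above are of promoters, so they are not directly comparable with this count of genes. EPHA4 and TXNIP are not among the 12, TXNIP was picked after its values were seen, and a match is a description of letters, not a binding site.

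OR7A5 had log2 values of 6.17, 6.10 and 6.04 in GRα dexamethasone cells, against 5.32, 5.27 and 5.23 in control dexamethasone cells. In vehicle its values were 4.35, 4.43 and 4.48 in GRα cells and 4.65, 4.44 and 4.53 in control cells. The lines were thus apart with dexamethasone and overlapped in vehicle. All of these values except those of GRα dexamethasone cells lay below the first quartile of genes (5.565), where a difference may not show. TXNIP had 8.08, 8.15 and 8.38 in GRα dexamethasone cells, against 10.27, 10.29 and 10.55 in control dexamethasone cells. For TXNIP the lines were apart under both treatments, by −2.17 with dexamethasone and −2.10 in vehicle.

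The difference between the lines was tested against the same difference in vehicle, to find genes for which the agonist changed it. Only 12 of 18417 genes (0.0652%) passed, all with a more positive GRα minus control difference under dexamethasone, while 1361 had an unadjusted p under 0.05. The same test against RU486 gave 5 genes (0.0271%), with 768 at an unadjusted p under 0.05. These were ZBTB16, OR7A5, TMEM100, MAOA and NNMT, and all 5 were among the 12. The tests against vehicle and RU486 share the dexamethasone arrays. With no true change, about 0.05 of 18417 genes would have an unadjusted p under 0.05, so neither 1361 nor 768 counts changed genes.

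ZBTB16 encodes PLZF, a zinc finger transcription factor and a known glucocorticoid-induced gene. It had 8.87, 8.75 and 8.72 in GRα dexamethasone cells and 7.59, 7.60 and 7.66 in control dexamethasone cells. In vehicle it had 6.33, 6.24 and 6.29 in GRα cells and 5.99, 6.32 and 6.28 in control cells. Its line difference was 2.24-fold with dexamethasone (log2 1.16 ± 0.09 SE, limma adjusted p = 7.53e-09) and was not called in vehicle (0.09, limma adjusted p = 0.459), and the change between them was 1.07 ± 0.12 SE (limma adjusted p = 0.00153).

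TMEM100, a transmembrane protein gene linked to BMP signalling, had 6.88, 7.20 and 6.86 in GRα dexamethasone cells and 5.94, 5.61 and 5.79 in control dexamethasone cells. RASGRF1, an exchange factor for Ras, had 8.07, 8.33 and 7.93 in GRα dexamethasone cells and 6.95, 6.89 and 6.98 in control dexamethasone cells. NNMT, which methylates nicotinamide, had 6.79, 6.68 and 6.84 in GRα dexamethasone cells and 5.74, 5.92 and 5.94 in control dexamethasone cells. The lines did not overlap for any of these 3 genes with dexamethasone. In vehicle their line differences were −0.16, 0.14 and 0.02 for TMEM100, RASGRF1 and NNMT, none of them called. With dexamethasone they were 1.20 ± 0.13, 1.17 ± 0.10 and 0.90 ± 0.09 SE, and the changes of 1.35, 1.03 and 0.88 passed (limma adjusted p = 0.00538, 0.00538 and 0.0115).

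MAOA, the gene of monoamine oxidase A, followed another course. Its values were 5.97, 6.19 and 6.14 in GRα dexamethasone cells and 5.99, 6.02 and 6.08 in control dexamethasone cells, which overlapped. In vehicle they were 5.29, 5.03 and 4.94 in GRα cells and 5.88, 5.91 and 5.82 in control cells, with every GRα array below every control array. The line difference was 0.07 with dexamethasone (limma adjusted p = 0.588) and −0.78 in vehicle (limma adjusted p = 7.47e-07). GREB1L was higher in GRα cells under both treatments, by 1.02 ± 0.07 SE with dexamethasone and 0.43 in vehicle.

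The remaining 5 genes were called higher in GRα cells with dexamethasone and lower in GRα cells in vehicle. SYDE2, which regulates small GTPases, differed by 0.50 and −0.31 and VCL, the gene of the focal adhesion protein vinculin, by 0.44 and −0.28. LGR5, a receptor for R-spondins and a Wnt target, differed by 0.32 and −0.31, JADE1 by 0.22 and −0.31, and CSRNP1 by 0.26 and −0.33. VCL had 9.13, 9.19 and 9.06 in GRα dexamethasone cells and 8.69, 8.64 and 8.73 in control dexamethasone cells, against 8.13, 7.80 and 8.22 in GRα vehicle cells and 8.34, 8.30 and 8.35 in control vehicle cells. GRα vehicle replicate B was the lowest GRα vehicle array for all 5 genes. Its limma array weight, which is lower for noisier arrays, was 0.19, against 0.65 to 2.29 for the dexamethasone arrays. The other GRα vehicle arrays also lay below every control vehicle array for VCL, LGR5, JADE1 and CSRNP1. Leaving out each of the 12 dexamethasone and vehicle arrays in turn, ZBTB16, OR7A5, TMEM100, MAOA, RASGRF1 and NNMT passed every time. SYDE2, VCL, LGR5, JADE1, CSRNP1 and GREB1L passed in 2 to 5 of the 12 fits, with highest adjusted p-values between 0.0765 and 0.185.

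**Figure D1:**
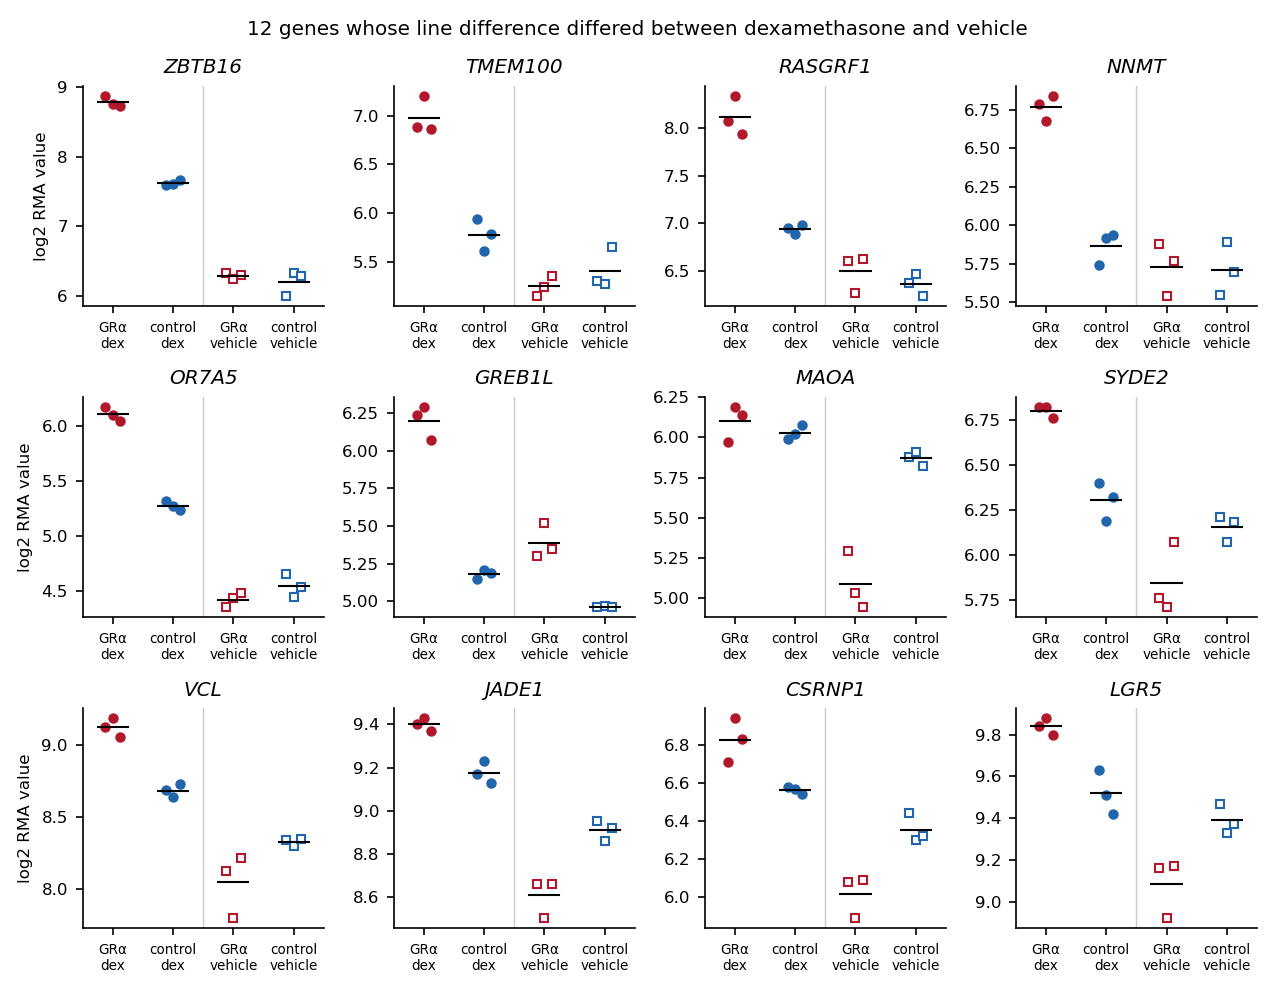
Log2 RMA values of the 12 genes whose line difference differed between dexamethasone and vehicle; points are arrays (3 per group), black lines are group means, and each panel has its own y axis that does not start at 0. ZBTB16, TMEM100, RASGRF1, NNMT and OR7A5 separate the lines with dexamethasone and not in vehicle, and MAOA does the reverse.

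Most of the difference between the lines was present without the agonist. Of the 6132 genes called with dexamethasone, 4669 were called the same way in vehicle (76.1% of the dexamethasone calls and 76.0% of the vehicle calls), where GRα cells were higher for 15% of genes and lower for 18.3%. Another 11 were called in opposite directions, including EPHA4 (0.29 and −0.39) and UNC45B (−0.37 and 0.21), for which the change itself did not pass (limma adjusted p = 0.195 and 0.0674). The EPHA4 difference with dexamethasone (limma adjusted p = 0.0497) was called in none of the 6 fits that left out 1 of its arrays. With RU486, 4548 were called the same way (74.2% of the dexamethasone calls and 84.4% of the RU486 calls). Across genes, which are not independent replicates, the line difference with dexamethasone correlated with that in vehicle at Pearson 0.906 and with that under RU486 at 0.928. These comparisons share no arrays, only the estimate of the spread. Of the 479 dexamethasone calls of at least 1 log2, 472 were called the same way in vehicle.

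**Figure D2:**
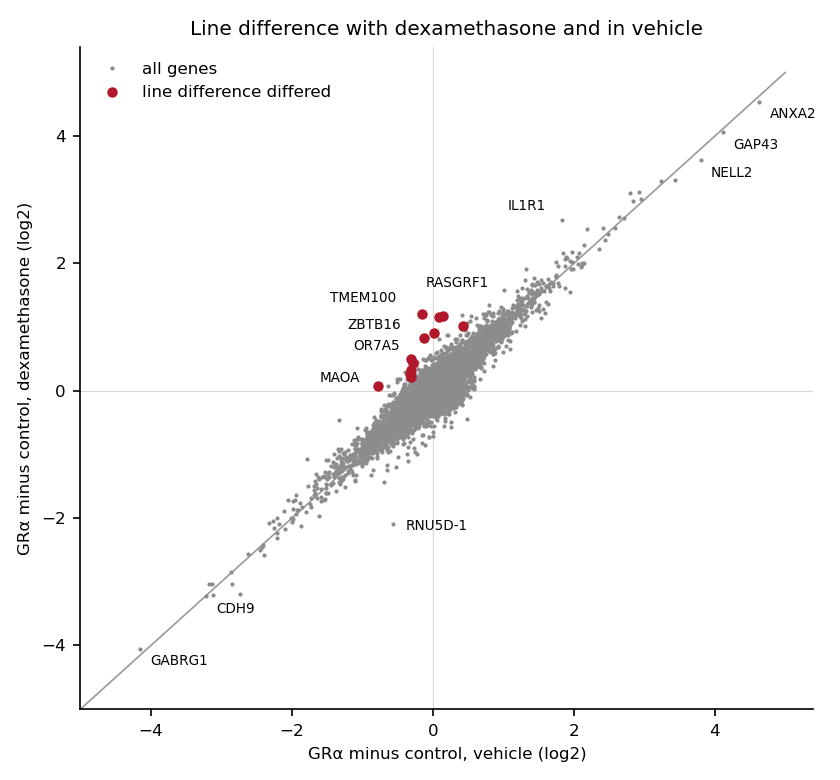
GRα minus control difference (log2) with dexamethasone on the y axis and in vehicle on the x axis; each point is 1 of 18417 genes, the line marks equal differences, and red points are the 12 genes for which the 2 differed. ANXA2 and GABRG1 lie at the ends of the line, and the red points lie above it.

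The largest rises and falls were differences of that shared kind. All 30 of the 15 largest rises and 15 largest falls, chosen among called genes whose arrays did not overlap, were called the same way in vehicle and with RU486. ANXA2, which encodes the calcium-dependent membrane-binding protein annexin A2, had 9.62, 9.65 and 9.59 in GRα dexamethasone cells and 4.96, 5.11 and 5.19 in control dexamethasone cells. It was 23.2-fold higher (log2 4.54 ± 0.10 SE, limma adjusted p = 3.11e-15). The pseudogene ANXA2P2 was 9.90-fold higher, and since it resembles ANXA2 in sequence the signals are not independent. GABRG1, a subunit gene of the GABA-A receptor, had 5.62, 5.89 and 6.00 in GRα dexamethasone cells and 9.99, 9.91 and 9.77 in control dexamethasone cells. It was 16.6-fold lower (log2 −4.05 ± 0.09 SE, limma adjusted p = 3.11e-15).

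IL1R1, the signalling receptor for interleukin 1, came close to the threshold for a change between vehicle and dexamethasone. It had 8.54, 8.56 and 8.39 in GRα dexamethasone cells and 5.77, 5.85 and 5.84 in control dexamethasone cells, a 6.4-fold difference. In vehicle it had 7.65, 7.35 and 7.83 in GRα cells and 5.92, 5.75 and 5.67 in control cells. The line difference was 2.68 ± 0.11 SE with dexamethasone and 1.83 in vehicle, and the change of 0.85 ± 0.15 SE missed the threshold (limma adjusted p = 0.0519). IL1RAP, which encodes the co-receptor of IL1R1, was 2.08-fold lower in GRα dexamethasone cells. Of 21 measured inflammatory genes known to be repressed by glucocorticoids, 2 were higher (9.52%) and 1 lower (4.76%). Over all genes these shares were 15.7% and 17.6%, and the median was −0.02 in both. The adhesion molecule gene VCAM1 was the lower one, at −0.71. The higher ones were IL1A and IL1B, at 0.43 and 0.40, and both lost the call without 1 array, IL1A being called in 5 and IL1B in 1 of 6 such fits (highest limma adjusted p = 0.0621 and 0.113). Both had log2 values of 4.66 to 5.52 on the 6 arrays, below the first quartile of genes (5.565).

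Among other rises, GAP43, a growth cone protein gene, was 16.7-fold higher, the secreted protein gene NELL2 12.3-fold, the tumour antigen gene PRAME 9.80-fold and the adhesion receptor gene ADGRG2 8.77-fold. AFF3, which encodes a component of transcription elongation complexes, was 8.58-fold higher, and CCND2, which encodes cyclin D2, 5.86-fold higher. LRRC49, UACA, CGNL1 and TFAP2C rose by 2.54 to 2.73 log2. Among other falls, the cadherin family genes CDH9, PCDH20 and FAT4 were 9.37-fold, 9.25-fold and 8.15-fold lower. TNC, the gene of the matrix glycoprotein tenascin C, was 8.25-fold lower, and GNRHR, the receptor for gonadotropin-releasing hormone, 7.22-fold lower. ZNF676 and ZNF492, which encode zinc finger proteins, were 8.24-fold and 5.97-fold lower. GPX7, VAMP8, PLPPR4, NPY1R, CEP15 and SPRR1B fell by 2.23 to 2.56 log2.

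**Figure D3:**
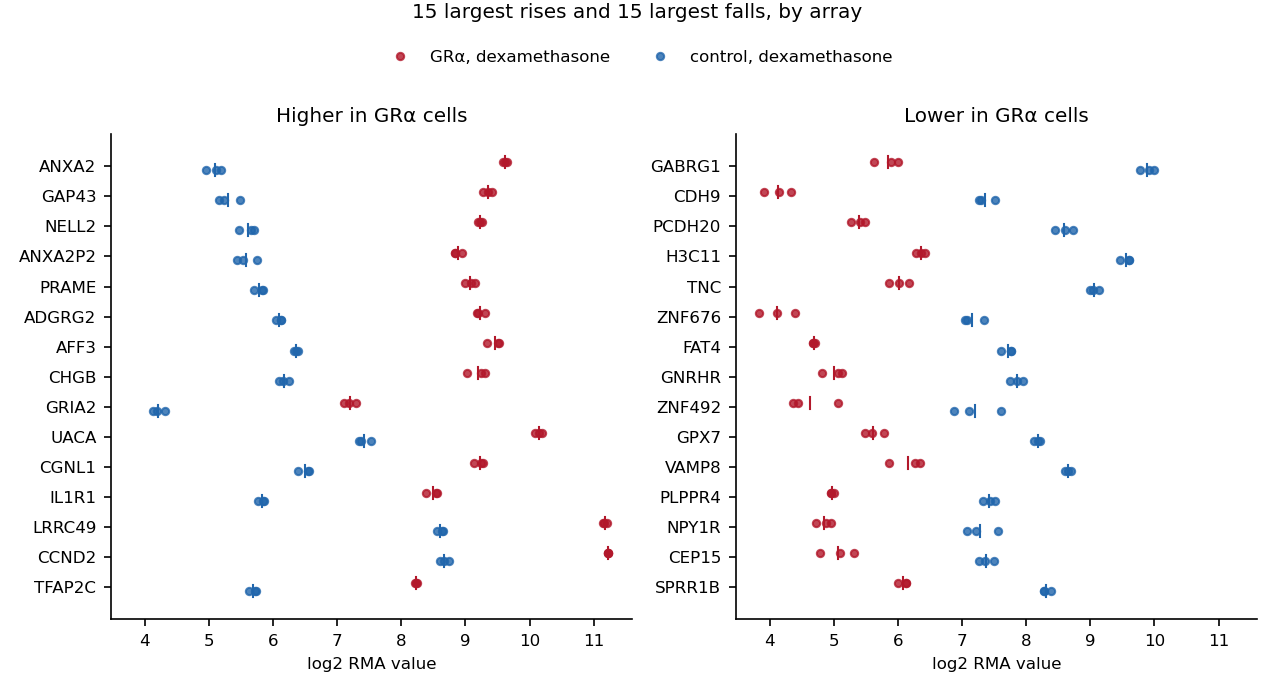
Log2 RMA values (x axis) of the 15 largest rises (left) and 15 largest falls (right) in GRα cells with dexamethasone; points are arrays, 3 per line, and short vertical lines are means. Only called genes whose arrays did not overlap were eligible, so GRα and control arrays lie apart for each gene shown by selection. The difference is 4.54 log2 for ANXA2 and −4.05 log2 for GABRG1.

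Differences of at least 1 log2 also occurred among genes of high signal. SV2C (log2 11.94, 11.91 and 11.91 in GRα dexamethasone cells, against 10.84, 10.84 and 10.89 in control dexamethasone cells) encodes a synaptic vesicle protein and was 2.08-fold higher. MYOT, the gene of the sarcomere protein myotilin, PAM, which amidates peptides, LAMB1, a laminin chain gene, and BRINP2 were 2.18-fold, 2.88-fold, 2.07-fold and 2.11-fold higher. ENPP2, which encodes autotaxin, had 10.18, 10.28 and 10.18 in GRα dexamethasone cells and 11.25, 11.26 and 11.13 in control dexamethasone cells and was 2.01-fold lower. GSTA1, a glutathione transferase gene, CPB1, FARP1 and NAMPT, the rate-limiting enzyme gene of NAD salvage, were 2.01-fold, 2.24-fold, 2.08-fold and 2.03-fold lower.

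Known glucocorticoid-induced genes were more often higher than lower in GRα cells with dexamethasone. Of 42 measured, 15 were higher (35.7%) and 4 lower (9.52%), against 15.7% and 17.6% over all genes. Their median difference was 0.15, against −0.02 over all genes. Of these 15, 7 were also called higher in vehicle, against 2126 of 2894 over all genes. In vehicle 10 of the 42 were higher and 5 lower, with a median of 0.1. The list holds 4 of the 12 genes whose line difference changed between vehicle and dexamethasone. It was also chosen with earlier results of these data known, so its counts are not independent of those genes. SGK1, a kinase that promotes sodium transport, had 8.18, 8.34 and 8.19 in GRα dexamethasone cells and 7.08, 7.05 and 7.01 in control dexamethasone cells. It was 2.28-fold higher with dexamethasone (limma adjusted p = 7.55e-10) and already 0.83 log2 higher in vehicle. ANXA1, an anti-inflammatory annexin gene, was 2.73-fold higher with dexamethasone and 1.35 log2 higher in vehicle.

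ERRFI1, a feedback inhibitor of the EGF receptor, had 8.83, 8.88 and 8.89 in GRα dexamethasone cells and 8.34, 8.25 and 8.21 in control dexamethasone cells. Its difference of 0.60 ± 0.06 SE was called, that in vehicle was not (0.14), and the change of 0.46 missed the threshold (limma adjusted p = 0.0674). PER1, a clock repressor, differed by 0.30 with dexamethasone and −0.10 in vehicle, and the change of 0.39 did not pass (limma adjusted p = 0.268). SLC26A2, a sulfate transporter gene, differed by 0.20 (limma adjusted p = 0.0302) and was called in 2 of the 6 fits that left out 1 of its arrays.

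Several classical targets were not called between the lines with agonist present. TSC22D3, which encodes GILZ, had 8.09, 8.12 and 7.91 in GRα dexamethasone cells and 8.20, 8.28 and 8.36 in control dexamethasone cells, a difference of −0.24 that missed the threshold (limma adjusted p = 0.123). In vehicle its difference of −0.65 was called, but the change between vehicle and dexamethasone did not pass. DUSP1, a MAP kinase phosphatase gene, differed by 0.08 and was not called, though it was called higher in vehicle (0.27) and with RU486 (0.31). Its change between vehicle and dexamethasone did not pass (limma adjusted p = 0.717). KLF9, a transcription factor gene, differed by 0.01 and was not called. By contrast, RGS2, a regulator of G protein signalling, and TNFAIP3, an inhibitor of NF-kB, were called lower in GRα cells, by 0.84 and 0.40 log2. FKBP5 has no probe set of its own among those used and is not analysed here.

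The steroid synthesis pathway starts with cholesterol, and genes for making and moving cholesterol were lower in GRα cells. Of 24 cholesterol synthesis genes, 16 were lower (66.7%) and 1 higher (4.17%), against 17.6% and 15.7% over all genes. Their median was −0.53, against −0.02 over all genes, and 15 of the 16 were also lower in vehicle. LSS, the lanosterol synthase gene, had 8.37, 8.43 and 8.41 in GRα dexamethasone cells and 9.94, 10.03 and 10.05 in control dexamethasone cells and was 3.04-fold lower. ACAT2, which makes acetoacetyl-CoA, and CYP51A1, which demethylates lanosterol, were 2.03-fold and 1.90-fold lower. SQLE, the squalene epoxidase gene, was the exception at 0.17 (limma adjusted p = 0.0487), and it was called in 1 of the 6 fits that left out 1 of its arrays.

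Of 20 genes for cholesterol delivery, 12 were lower and 3 higher (median −0.31). Over all genes 17.6% were lower and 15.7% higher, with a median of −0.02. STAR moves cholesterol into mitochondria, the rate-limiting step of steroid synthesis. It had 9.56, 9.70 and 9.50 in GRα dexamethasone cells and 10.43, 10.36 and 10.39 in control dexamethasone cells, with no overlap, and was 1.75-fold lower (limma adjusted p = 1.23e-07). SCARB1, the receptor for high-density lipoprotein, and GRAMD1B, which carries cholesterol from the plasma membrane, were 1.88-fold and 1.82-fold lower. SOAT1, which esterifies cholesterol, and OSBPL1A, a sterol-binding protein gene, rose by 0.26 and 0.37 log2.

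Of 27 steroidogenic enzyme and cofactor genes, 8 were lower (29.6%) and 3 higher (11.1%), with a median of −0.08. Over all genes 17.6% were lower and 15.7% higher. HSD3B2, which is needed for all classes of active steroid hormone, had 5.29, 5.17 and 5.38 in GRα dexamethasone cells and 7.0, 6.88 and 6.99 in control dexamethasone cells. It was 3.19-fold lower (limma adjusted p = 1.02e-07). CYP19A1, the aromatase gene, was 3.20-fold lower and SULT2A1, which sulfates DHEA, 2.23-fold lower. POR, which passes electrons to microsomal cytochromes P450, STS, steroid sulfatase, and HSD17B3 were 1.48-fold, 1.62-fold and 1.45-fold higher.

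CYP11A1, which makes pregnenolone from cholesterol, had 10.20, 10.32 and 10.24 in GRα dexamethasone cells and 10.17, 10.16 and 10.20 in control dexamethasone cells and was not called (limma adjusted p = 0.532). CYP17A1, the 17-hydroxylase gene, differed by 0.20 and just missed the threshold (limma adjusted p = 0.0507). CYP11B1, CYP11B2, HSD11B1 and HSD11B2, which make or interconvert active corticosteroids, differed by −0.13 to 0.02, none called. CYP11B2 had log2 values of 5.13 to 5.55 on the 6 dexamethasone arrays, below the first quartile of genes (5.565), where a difference may not show. The ACTH receptor gene MC2R and NR5A1, which encodes the adrenal master regulator SF-1, differed by 0.00 and −0.07, neither called.

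Among 18 adrenocortical transcription factor genes, 4 were higher (22.2%) and 4 lower (22.2%), against 15.7% and 17.6% over all genes. DACH2 was 2.87-fold higher and its relative DACH1 1.60-fold lower. GATA6, a zinc finger factor, was 1.76-fold lower, and the orphan nuclear receptor genes NR4A1 and NR4A2 were 1.38-fold and 1.60-fold higher. Among 42 genes of ACTH, angiotensin and potassium signalling, 11 were higher (26.2%) and 6 lower (14.3%). The potassium channel gene KCNK2 was 2.39-fold, the phospholipase gene PLCB1 2.64-fold and the calcium channel gene CACNA1C 2.21-fold higher.

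Among 25 steroid and thyroid hormone receptor genes, 5 were higher and 5 lower. PPARG and ESR1, the oestrogen receptor alpha gene, were 2.12-fold and 1.91-fold higher, and the thyroid receptor gene THRB and ESR2 were 1.55-fold and 1.38-fold lower. Of 24 genes for chaperones and partners of the receptor, 8 were lower (33.3%) and 4 higher (16.7%). BAG1, a co-chaperone, was 1.73-fold higher, DNAJA1 1.5-fold and HSP90AB1, an HSP90 gene, 1.17-fold higher, while DNAJB1 was 1.46-fold and STIP1, which bridges HSP70 and HSP90, 1.34-fold lower. Of 36 nuclear receptor coregulator genes, 13 were lower (36.1%) and 2 higher (5.56%), with a median of −0.04, against −0.02 over all genes. TRIM28 was 1.75-fold and the coactivator gene NCOA1 1.39-fold lower, and the corepressor scaffold gene SIN3A was 1.77-fold higher.

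Genes of the Wnt pathway, which in the adrenal cortex is known for maintaining the outer zone, were often higher. Of 42 measured, 18 were higher (42.9%) and 6 lower (14.3%), against 15.7% and 17.6% over all genes. In vehicle 17 of the 18 were higher too. The inhibitor gene APCDD1 had 10.49, 10.51 and 10.52 in GRα dexamethasone cells and 8.43, 8.41 and 8.39 in control dexamethasone cells and was 4.27-fold higher. WNT4, a ligand of the adrenal cortex, was 3.52-fold higher. LGR5 is the member of this list that was called with opposite signs under dexamethasone and in vehicle. DKK1, a secreted inhibitor, and the receptor gene FZD5 were 1.33-fold and 1.51-fold lower.

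**Figure D4:**
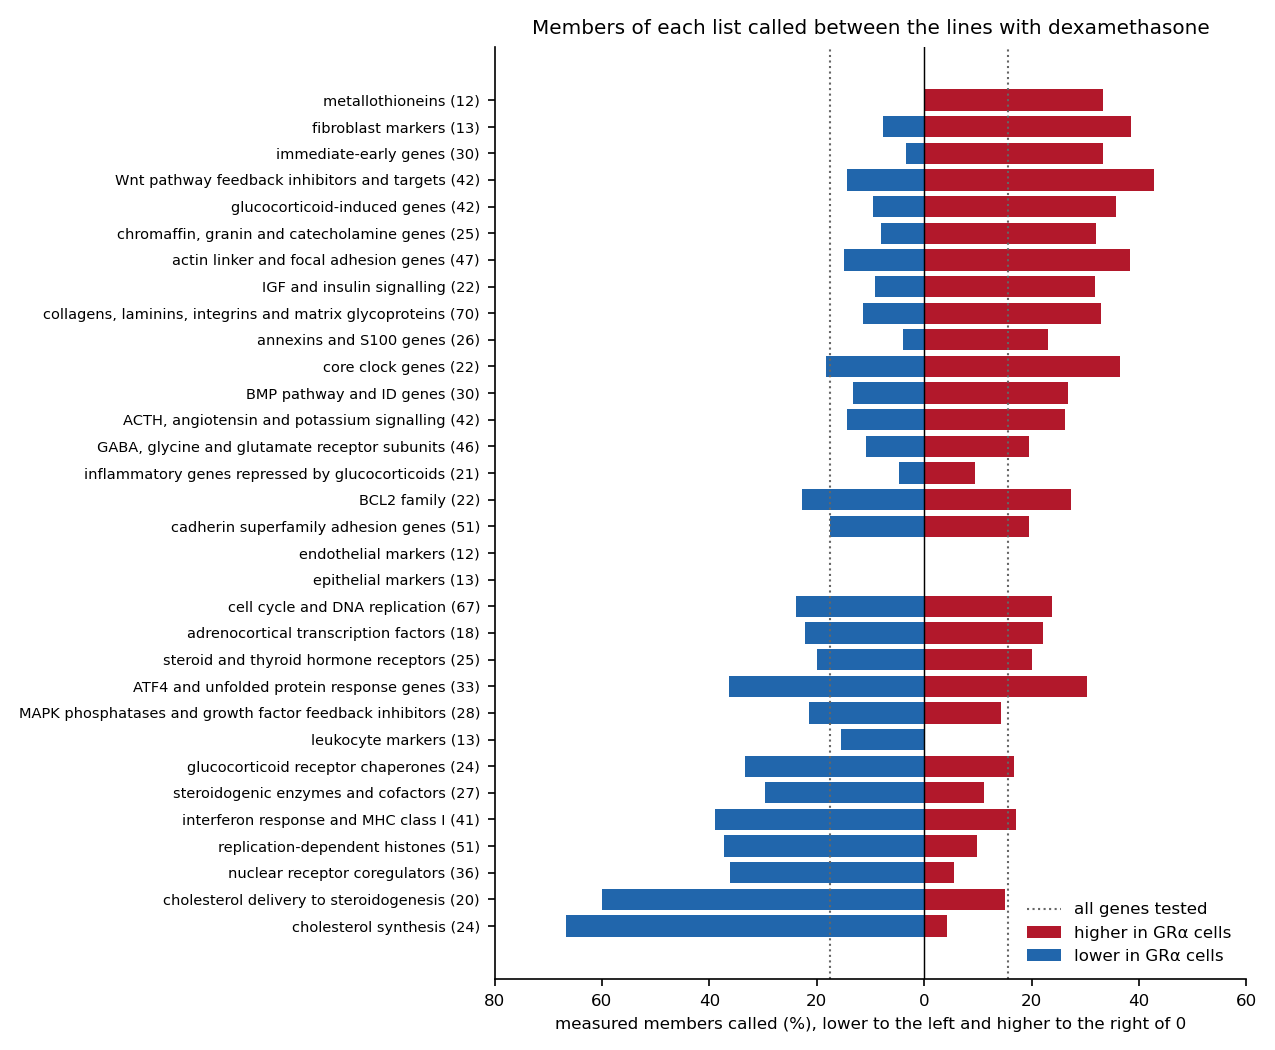
Share of the measured members of each list (number in brackets) called higher in GRα cells, to the right of 0, or lower, to the left of 0, with dexamethasone; dotted lines mark 15.7% and 17.6% for all genes tested. Of the lists shown, cholesterol synthesis has the largest share lower (66.7%) and the Wnt list the largest share higher (42.9%).

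Of 70 collagen, laminin, integrin and matrix glycoprotein genes, 23 were higher (32.9%) and 8 lower (11.4%), with a median difference of 0.06. Over all genes 15.7% were higher and 17.6% lower. The integrin gene ITGAV was 2.50-fold and the fibrillin gene FBN2 2.52-fold higher, and COL11A1 was 1.95-fold lower. Fibroblast markers, 4 of which are also on the matrix list, are given beside them. Of 13, 5 were higher (38.5%) and 1 lower (7.69%), and 5 lay below the first quartile of genes on all 6 arrays. The summed linear signal of the 13 was 1780 to 1810 in GRα cells and 1510 to 1570 in control cells. Their part in the matrix result was not tested.

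Of 47 actin linker and focal adhesion genes, 18 were higher (38.3%) and 7 lower (14.9%), against 15.7% and 17.6% over all genes. ACTA2, smooth muscle actin, and SORBS2 were 2.81-fold and 2.65-fold higher. Of 26 annexin and S100 genes, 6 were higher (23.1%) and 1 lower (3.85%), and S100A10, whose product binds annexin A2, was 2.30-fold higher. Cadherin family genes were called in shares near those of all genes, with 10 of 51 higher and 9 lower. Of 25 chromaffin, granin and catecholamine genes, 8 were higher (32.0%) and 2 lower (8.0%), with a median difference of 0.02. Of these 25, 9 lay below the first quartile of genes on all 6 arrays. The granin genes CHGB and SCG3 were 8.13-fold and 2.33-fold higher, while TH, DDC, DBH and PNMT, the enzyme genes of catecholamine synthesis, differed by −0.16 to 0.10 and were not called. The summed linear signal of the list was 3370 to 3590 in GRα cells and 1930 to 1960 in control cells. Without GAP43 and CHGB, left out after seeing the data, it was 2190 to 2270 in GRα cells and 1820 to 1850 in control cells. Of 46 receptor subunit genes for GABA, glycine and glutamate, 9 were higher (19.6%) and 5 lower (10.9%). Among them were GRIA2 (7.89-fold higher), GRIN3A (2.91-fold higher) and GABBR2 (2.64-fold higher).

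Genes of 4 signalling lists follow, to be read against 15.7% higher and 17.6% lower over all genes. IGFBP7 and IGFBP3, which bind insulin-like growth factors, and the receptor gene IGF1R were 3.88-fold, 2.38-fold and 1.91-fold higher, among 7 of 22 genes of this system that were higher (31.8%) and 2 that were lower (9.09%). DUSP10 and DUSP6, which encode MAP kinase phosphatases, and SPRY2, a feedback inhibitor, were 3.63-fold, 2.94-fold and 2.27-fold lower, while the list of 28 feedback genes, 6 lower (21.4%) and 4 higher (14.3%), was near the shares of all genes. ID3 and ID1, targets of BMP signalling, were 3.06-fold and 2.33-fold higher, and the BMP pseudoreceptor gene BAMBI was 1.76-fold lower, among 8 of 30 genes higher (26.7%) and 4 lower (13.3%). Of 30 immediate-early genes, 10 were higher (33.3%) and 1 lower (3.33%), with a median difference of 0.02. CCN1 rose by 0.48 and FOSL2 by 0.53, and IER2 fell by 0.35 log2.

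Metallothionein genes, which are induced by metals and glucocorticoids, were higher in 4 of 12 (33.3%) and lower in none. Over all genes 15.7% were higher and 17.6% lower. All 4 were also called higher in vehicle, where 6 were, or 3 without GRα vehicle replicate B. MT1X had 10.44, 10.51 and 10.39 in GRα dexamethasone cells and 9.86, 9.88 and 9.84 in control dexamethasone cells. Of 22 clock genes, 8 were higher (36.4%) and 4 lower (18.2%), with RORA 1.78-fold higher and BHLHE41 1.63-fold and DBP 1.5-fold lower. BCL2L1 encodes the survival protein BCL-XL and was 1.83-fold higher. It had 9.25, 9.26 and 9.25 in GRα dexamethasone cells and 8.40, 8.48 and 8.28 in control dexamethasone cells. Of 22 BCL2 family genes, 6 were higher (27.3%) and 5 lower (22.7%). Of 41 interferon response and MHC class I genes, 16 were lower (39.0%) and 7 higher (17.1%), led by XAF1, which was 4.27-fold lower. Of 33 genes of the ATF4 and unfolded protein responses, 12 were lower (36.4%) and 10 higher (30.3%), with SLC7A1 2.22-fold lower and SDF2L1 2.34-fold higher. Cell cycle genes were called in both directions, 16 of 67 higher (23.9%) and 16 lower (23.9%).

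Small noncoding RNAs and a histone RNA, which lack poly(A) tails, made up the 5 largest falls among genes called with dexamethasone and not in vehicle. RNU5D-1, a spliceosomal RNA, had 7.58, 6.87 and 6.62 in GRα dexamethasone cells and 9.63, 8.59 and 9.12 in control dexamethasone cells. In vehicle it had 7.37, 9.45 and 7.59 in GRα cells and 9.22, 8.61 and 8.29 in control cells, where GRα replicate B lay above every control array and the other GRα arrays below them. RNU4-1, RMRP, SCARNA7 and H3C1 differed by −1.20, −1.1, −1.0 and −0.99. None of the 5 passed the test of the change between vehicle and dexamethasone (limma adjusted p = 0.61 to 0.759). Among replication-dependent histone genes, H3C11 (9.20-fold lower) and H1-5 (2.65-fold lower) led the falls with dexamethasone. Of 51 measured, 19 were lower (37.3%) and 5 higher (9.8%) with dexamethasone, against 17.6% and 15.7% over all genes. In vehicle 7 were lower and 12 higher, but GRα vehicle replicate B had a median histone signal of 8.75, against 7.95 and 7.94 in the other GRα vehicle arrays and 8.08 to 8.44 in control vehicle arrays. Without that array, an alternative chosen after seeing the data, 25 were lower and 8 higher in vehicle. On the dexamethasone arrays the median histone signals were 7.84, 7.96 and 7.81 in GRα cells and 8.21, 8.17 and 8.21 in control cells.

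The called genes, 15.7% of all genes higher and 17.6% lower, were spread unevenly over the chromosomes. On chromosome 15, GRα cells were higher for 314 of 576 genes (54.5%) and lower for 19 (3.30%), with a median difference of 0.27. Chromosome 13 had the reverse, with 154 of 317 genes (48.6%) lower and 20 higher and a median of −0.22, and on chromosome 21, 100 of 236 (42.4%) were lower and 18 higher. On chromosome 9, 34.2% of 732 genes were higher and 8.47% lower, and on chromosome 19, 26.7% of 1308 genes were lower and 5.43% higher. In vehicle 54.0% of chromosome 15 genes were higher and 49.8% of chromosome 13 genes were lower, and with RU486 51.2% and 49.2%. Of the 15 largest rises, 4 (ANXA2, UACA, CGNL1 and LRRC49) lie on chromosome 15, and CYP19A1 on the same chromosome was lower.

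Genes called in the same direction also lay side by side. In the order of measured genes, 18 runs of at least 8 neighbours were all called higher, 8 of the runs on chromosome 15, and 8 runs were all called lower, 5 of them on chromosome 19. The longest held 18 genes from ZNF805 to ZNF211 on chromosome 19, nearly all encoding zinc finger proteins, with a median difference of −0.54 with dexamethasone and −0.55 in vehicle. The next held 17 genes from ULK3 to SNX33 on chromosome 15 (median 0.65 with dexamethasone and 0.62 in vehicle), SIN3A among them. A run of 14 genes on chromosome 21 included the interferon receptor genes IFNAR1, IFNAR2 and IFNGR2 (median −0.59 and −0.60), and a run of 9 on chromosome 13 ended at SPRY2 (median −0.83 and −0.90). A run of 11 protocadherin genes from PCDHA2 to PCDHA13 on chromosome 5 is of genes whose RNAs share exons. DNA copy number was not measured.

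**Figure D5:**
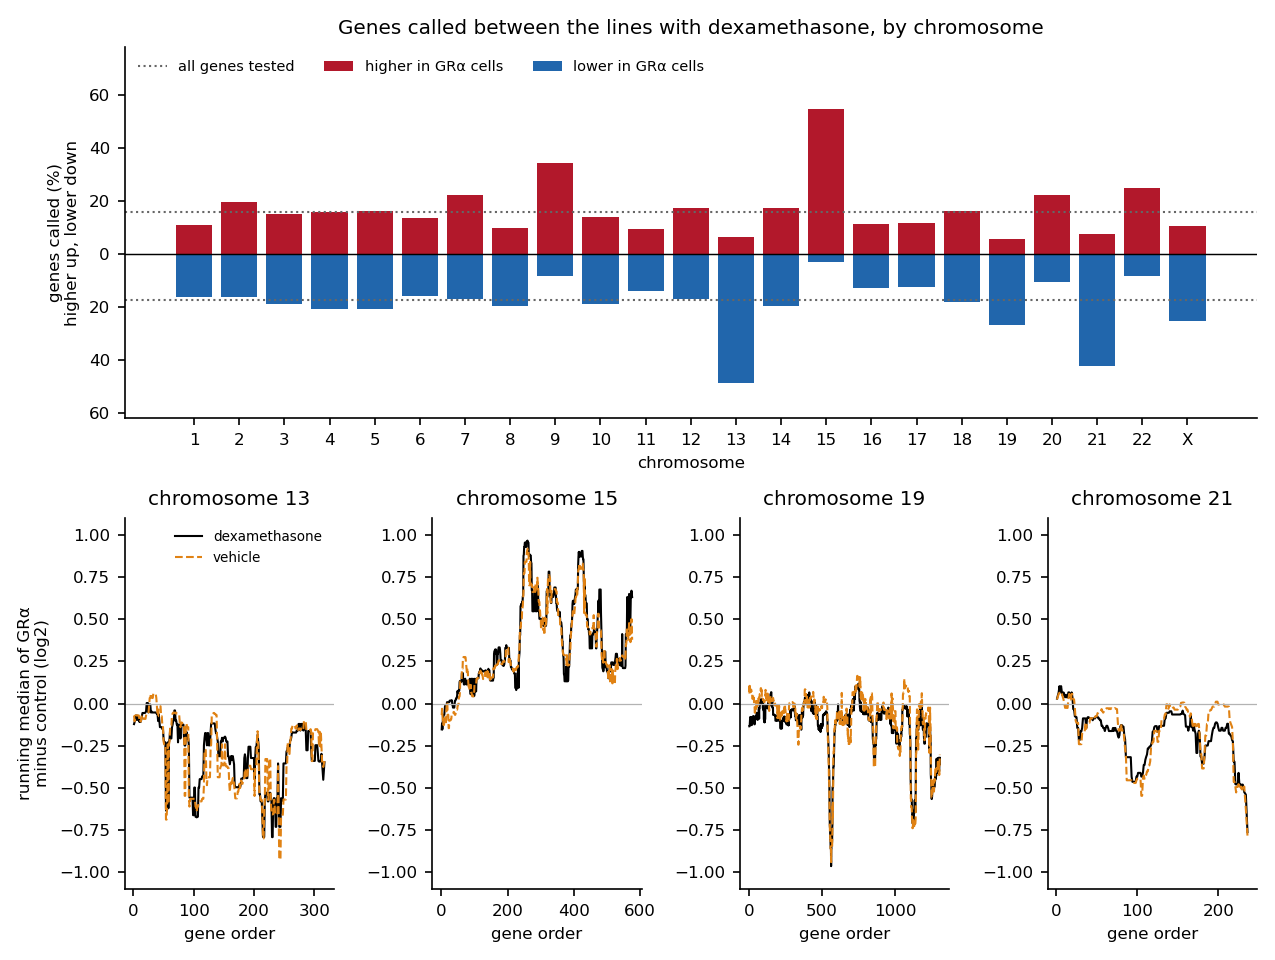
Upper panel, share of the genes of each chromosome called higher (up) or lower (down) in GRα cells with dexamethasone, with dotted lines for all genes; lower panels, running median over 25 neighbouring genes of the GRα minus control difference (log2) along 4 chromosomes, with dexamethasone (solid) and in vehicle (dashed), by gene order. Chromosome 15 reaches 0.97 and chromosome 13 falls to −0.79 with dexamethasone, and the dashed lines take a similar course.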

How the data were processed

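RNA was measured on human whole-transcript Affymetrix arrays from 100 ng of total RNA, per the labels. The authors deposited log2 values of 29153 probe sets, made with RMA, which quantile-normalizes arrays, per the submitters' processing notes, which also name limma. The sources used here give no version or genome build. A common shift of most RNAs would not appear in such values. 1 of 18 arrays (GRα RU486 replicate A) has an empty column and was not used. Precision is limited by 2 or 3 arrays a group. Probe sets were named by the platform annotation, updated through RefSeq (19429 of 19460 with 1 symbol matched), and 1754 with several symbols and 7939 with none stayed out. The probe set with the highest mean stood for each of 769 genes with several, leaving 18417 genes. FKBP5, CYP21A2 and NR0B1 have no probe set of their own and are not analysed here. RefSeq served for names, gene order and promoters only.

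Here, limma 3.58.1 (R 4.3.3) was fitted once to the 17 arrays, each group having its own mean (11 residual and 5.89 prior degrees of freedom), two-sided, with Benjamini-Hochberg adjustment over 18417 genes. The fit was tested on simulated data. Groups, gene lists (32, 963 of 1060 members measured), tests, named genes and the comparison itself were chosen with earlier results of these data known. Named genes were a panel of receptor targets and steroidogenic genes, the 15 largest rises and falls, up to 3 called members of each list each way, the genes of the change between treatments and the brightest large differences, some left out for length. Same-letter replicates did not deviate together (correlations of −0.128, −0.113 and 0.077), so the letters were not used as pairs. Alternatives are given in the closing section.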

Additional observations from a re-analysis of the deposited data

Results flagged for a closer look

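In 12 genes the GRα minus control difference with dexamethasone differed from that in vehicle by an interaction contrast in limma. The change, in log2 units, was 1.35 for TMEM100, 1.07 for ZBTB16, 1.03 for RASGRF1, 0.95 for OR7A5, 0.88 for NNMT, 0.85 for MAOA, 0.81 for SYDE2, 0.72 for VCL, 0.62 for LGR5, 0.59 for CSRNP1, 0.59 for GREB1L and 0.53 for JADE1. Against RU486 the change passed for 5 of them, at 1.22 for TMEM100, 0.91 for NNMT, 0.91 for OR7A5, 0.90 for ZBTB16 and 0.87 for MAOA. RASGRF1 changed by 0.68 against RU486, which did not pass (limma adjusted p = 0.285).

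Probe sets with no symbol or several, which the gene comparisons did not use, also differed between the lines with dexamethasone. Of 9693 such probe sets, 1278 (13.2%) were called, 659 higher and 619 lower in GRα cells, with differences of −3.50 to 2.46 log2.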

How the results depend on the processing

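The count of 6132 genes called with dexamethasone stayed within 1.5 times under every alternative except a minimum of 1 log2, which left 479 (435 in vehicle and 458 with RU486). It was 5987 with the replicate letter as a replicate block, although the letters share only a name, and 5289 to 6862 without 1 array. The vehicle and RU486 counts of 6144 and 5386 ranged from 5015 to 6290 and from 3881 to 6158 without 1 array. The 12 genes whose line difference changed between vehicle and dexamethasone became 19 with the eBayes trend, 22 with array weights, 5 with only the groups compared, 5 at an adjusted p under 0.01, 3 with at least 1 log2, 8 with the replicate block and 6 to 15 without 1 array, being 6 without control vehicle A, control vehicle C, control dexamethasone B, control dexamethasone C or GRα dexamethasone B and 7 without GRα dexamethasone A. The 5 against RU486 became 8 with the trend, 17 with weights, 0 at an adjusted p under 0.01, 1 with at least 1 log2 and 0 to 7 without 1 array, being 0 without control dexamethasone B, control RU486 A or GRα RU486 B and 2 without control RU486 C or GRα dexamethasone A. At an unadjusted p under 0.05 it was 768 genes. The cause was not tested, beyond the stricter thresholds and fewer arrays. NR3C1 differed by 0.66 to 0.75 without 1 array. Of 201 called genes among 213 named, 185 were called in all 6 fits without 1 dexamethasone array, and no named gene that was called reversed under any alternative. List counts stayed within 1.5 times in 1625 of 1728 recounts. With the replicate block CD3D, EPHA4, SQLE and TWIST1 were no longer called and CYP17A1 was, and no other named gene changed its call.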
